A study of Mus musculus with 3 samples.

Results

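The 10 genes described here encode the machinery of V(D)J recombination and of the end joining that completes it, and their RNA was measured in cultured mouse pro-B cells that had or lacked Pax5. They were taken by name and matched by Entrez number, and all 10 of 10 were found among the 27179 genes of the count table. Rag1 and Rag2 form the recombinase that cuts DNA. Dntt (terminal deoxynucleotidyl transferase, TdT), Polm and Poll are polymerases that fill or extend the ends, and Dclre1c encodes the nuclease Artemis. Lig4, Xrcc4 and Nhej1 encode the ligase, its scaffold and its partner XLF, and Prkdc encodes DNA-PKcs, the kinase that binds the ends and activates Artemis.

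Lymphocyte precursors assemble antigen receptor genes by V(D)J recombination, in which the RAG proteins cut beside gene segments and leave hairpin-sealed ends. Artemis with DNA-PKcs opens the hairpins, TdT adds nucleotides without a template, polymerases mu and lambda fill gaps, and the ligase 4 complex seals the joint. RAG and TdT are known mainly from developing lymphocytes, whereas the other end-joining proteins also repair breaks in other cells. Pro-B cells rearrange the heavy chain, and Pax5 is the transcription factor that commits them to the B lineage.

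There were 2 Pax5-/- samples, labelled male and independently prepared, and 1 wild-type sample, labelled female. All came from C57BL/6 bone marrow, from which B220+ cells (B220 is a B-lineage form of CD45) were grown over OP9 stroma. For both Pax5-/- samples the labels give a harvest at day 7 with IgM+ cells removed by magnetic depletion, and for the wild type they give neither. Sex, stated day and stated depletion therefore cannot be told apart from genotype, and the exons that the Pax5 allele lacks are not stated. Values are given throughout in the order Pax5-/- sample 1, Pax5-/- sample 2, wild type. The libraries held 6487846, 6697879 and 6530057 gene counts. Pax5 itself was counted 417, 551 and 1601 times, so it was lower and not absent. Of the pro-B markers checked, all 10 had counts in every library. Of 8 T-cell markers, 7 had at most 7 counts in any library, and these included the CD3 chains, Cd4 and Cd8a, while Thy1 had 362, 594 and 120 and rose. Of 8 myeloid markers 1 rose (Lyz2, with 92, 128 and 28 counts) and 2 fell (S100a8 and S100a9, the latter with 0, 0 and 232). The 7 stromal markers summed to 7.10, 9.55 and 20.3 CPM (counts scaled to a common library size), and of 6 NK markers only Klrb1c, at 23, 9 and 7 counts, passed the filter on low counts. Whether such cells had a part in any result was not tested.

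The 10 members did not all move in the same direction. The recombinase subunit Rag1 and the polymerases Dntt and Poll were 1.80-fold, 2.20-fold and 2.76-fold higher in the Pax5-/- libraries. The polymerase Polm had no counts there, and the ligase Lig4 was 6.79-fold lower. Of the 10 members, 3 were called higher, 2 lower and 5 not called (edgeR quasi-likelihood fit over all genes, with a Benjamini-Hochberg adjusted p under 0.05). Across all 11783 genes tested, 18.1% were called, 9.53% higher and 8.55% lower. By step, 1 of 2 cleavage genes was called, 3 of 4 processing genes and 1 of 4 genes of ligation and its kinase. Both Pax5-/- libraries lay above the wild type for 5 members and below it for 4, and over all genes tested these shares were 42.3% and 42.9%. With a biological coefficient of variation of 0.4 set for all genes, the calls of Polm and Lig4 were kept and those of Rag1, Dntt and Poll were lost. The median log2 fold change (Pax5-/- over wild type) of the 10 was 0.15, and over all genes tested it was 0.01. All 10 passed the filter on low counts. In a bulk sample, fewer cells that express a gene and less RNA per cell cannot be told apart, which applies to every difference below.

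**Figure D1:**
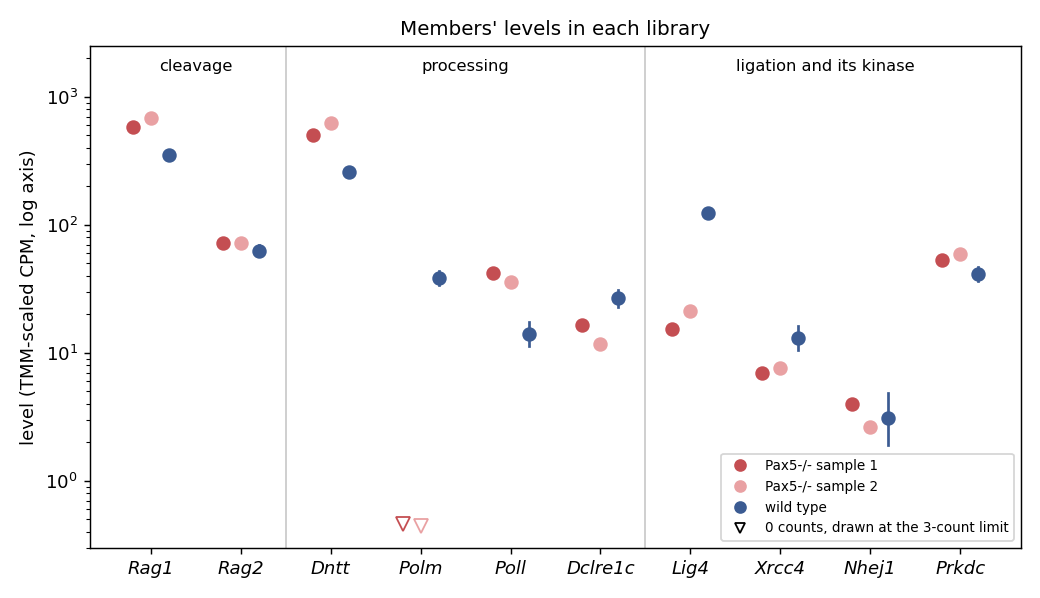
Levels of the 10 members in each library in CPM scaled by TMM, on a log axis; each point is 1 library, the bar on the wild type is its 95% Poisson counting interval, and open triangles mark 0 counts at the 3-count limit. Dntt, Rag1 and Poll sit higher in both Pax5-/- libraries, Lig4 far lower, and Polm had 246 counts in the wild type and 0 in both Pax5-/- libraries.

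The start regions of Rag1, Rag2 and Dntt and of the 2 members that fell are shown, and were chosen because they differ in CpG content. Each is the 250 bases before the RefSeq start (GRCm38.p6), 5′ to 3′, with CpG dinucleotides in capitals. The windows are Rag1 (chr2:101649533-101649782, minus strand), Rag2 (chr2:101624462-101624711, plus strand), Dntt (chr19:41029025-41029274, plus strand), Polm (chr11:5838017-5838266, minus strand) and Lig4 (chr8:9977681-9977930, minus strand).
Rag1: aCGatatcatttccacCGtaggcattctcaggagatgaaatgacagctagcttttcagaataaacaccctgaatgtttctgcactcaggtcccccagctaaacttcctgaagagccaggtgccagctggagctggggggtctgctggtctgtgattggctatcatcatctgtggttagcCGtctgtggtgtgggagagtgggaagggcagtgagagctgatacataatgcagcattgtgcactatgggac
Rag2: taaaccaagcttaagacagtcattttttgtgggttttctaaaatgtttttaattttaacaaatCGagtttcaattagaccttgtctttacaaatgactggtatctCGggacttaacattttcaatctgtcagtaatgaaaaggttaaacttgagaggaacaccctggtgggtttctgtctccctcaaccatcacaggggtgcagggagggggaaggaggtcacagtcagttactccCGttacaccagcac
Dntt: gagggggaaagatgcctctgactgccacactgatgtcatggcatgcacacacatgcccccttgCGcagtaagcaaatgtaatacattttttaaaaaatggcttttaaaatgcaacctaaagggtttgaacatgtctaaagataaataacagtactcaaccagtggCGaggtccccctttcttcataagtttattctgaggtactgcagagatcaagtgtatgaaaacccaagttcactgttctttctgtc
Polm: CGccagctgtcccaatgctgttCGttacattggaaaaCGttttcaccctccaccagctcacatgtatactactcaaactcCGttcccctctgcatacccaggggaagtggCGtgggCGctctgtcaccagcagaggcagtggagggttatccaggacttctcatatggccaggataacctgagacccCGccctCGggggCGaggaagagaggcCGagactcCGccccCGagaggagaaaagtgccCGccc
Lig4: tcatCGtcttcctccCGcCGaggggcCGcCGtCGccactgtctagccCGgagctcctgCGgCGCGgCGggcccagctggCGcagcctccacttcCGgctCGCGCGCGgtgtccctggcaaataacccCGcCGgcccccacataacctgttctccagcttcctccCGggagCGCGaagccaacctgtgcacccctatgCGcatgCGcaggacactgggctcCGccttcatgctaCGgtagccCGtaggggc

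The Rag1, Rag2 and Dntt windows held 3, 3 and 2 CpG, against a median of 6 over 32851 such windows of mouse genes (lower quartile 2, upper quartile 16). Lig4 held 27 and Xrcc4 held 26, and 91.4% and 90.4% of all windows held fewer. Polm held 13, Nhej1 9 and Dclre1c 8. Xrcc4 was nearly as rich in CpG as Lig4 and was not called. Poll, the member with the largest rise, and Prkdc had no window in the table, so CpG content was not set against direction. RefSeq windows were matched for 8 of the 10 members, with 9 windows because Lig4 has 2 starts. The RefSeq span of Polm reaches beyond the start used here, so other Polm starts lie outside this window.

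Motifs were searched on both strands of the 300-base windows, which add 50 bases after the start. The Pax5 core GCGTGAC was in 0 of the 9 member windows (2.09% of all windows), the Foxo site TGTTTAC in 0 (3.65%) and the palindromic Ebf1 consensus in 0 (0.904%). The E-box CAGGTG, a site of E proteins, was in 1, the Rag1 window, with its first base at -135 from the start (20.2% of all windows). These are matches of letters in a short window and say nothing about binding.

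Of the recombinase, Rag1 rose and Rag2 was not called. Rag1 encodes the subunit with the catalytic site, and lies on chromosome 2 (101638252 to 101649532, mm10). It had 3737, 4621 and 2237 counts, or 577, 679 and 349 CPM (628 ± 72.1, SD, n = 2, in Pax5-/-). Both Pax5-/- libraries lay above the wild type, whose 95% Poisson interval ran from 335 to 364 CPM. The level was 1.80-fold higher (log2 fold change 0.85, SE 0.15, adjusted p = 0.0313, edgeR). In the likelihood ratio test it did not pass (adjusted p = 0.0631).

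Rag2, the regulatory subunit, which reads a histone mark of active chromatin, lies 5723 bases from Rag1 in the convergent orientation. In mouse B-cell lines its promoter has been described as bound by Pax5. It had 471, 493 and 403 counts, or 72.7, 72.4 and 62.9 CPM, so the Pax5-/- libraries were almost equal and both slightly above the wild type. The log2 fold change was 0.21 with a 95% interval of -0.19 to 0.60 (adjusted p = 0.374, edgeR), so Rag2 was neither shown to change nor shown to be the same. Rag2 shares 208 exonic bases with Iftap on the other strand (GENCODE M21). Iftap had 29, 35 and 14 counts, few beside Rag2, and was not called.

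Per length, the 2 subunits stood further apart without Pax5. The ratio of Rag1 to Rag2 in reads per kilobase was 4.04, 4.77 and 2.82. The 95% counting intervals were 3.67 to 4.45, 4.34 to 5.24 and 2.54 to 3.15, so those of the Pax5-/- libraries lay above that of the wild type. These intervals cover counting error only, and with 1 wild-type library the difference in ratio was not tested over samples. Traf6, the next gene beyond Rag1, had 710, 707 and 931 counts and was not called (log2 fold change -0.44, SE 0.14).

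Markers of later B cells moved beside the RAG genes, in the opposite direction to Rag1. Of 9 such markers, 8 fell and 1 rose, and their summed level was 358, 413 and 1194 CPM. Igkc, the kappa constant gene, had 54, 30 and 3927 counts, and Iglc1, Iglc2 and Ms4a1 were at 0 in both Pax5-/- libraries. The marker that rose was Il2ra, which at 312, 392 and 101 CPM made up most of the sum in both Pax5-/- libraries. The part of these cells in the RAG result was not tested.

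The processing enzymes went in both directions, and the 3 related polymerases each differed. Dntt, Polm and Poll belong to the family X of DNA polymerases. Dntt and Poll rose and Polm was not detected without Pax5. Artemis, the nuclease of this step, was not called.

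Dntt (chromosome 19, 41029275 to 41059525, mm10) had 3280, 4231 and 1646 counts, or 506, 621 and 257 CPM. Both Pax5-/- libraries were far above the wild type, and the level was 2.20-fold higher (mean 564 ± 81.5 CPM, SD, n = 2). The log2 fold change was 1.14 (SE 0.17), with an adjusted p of 0.0234 (edgeR). Dntt was the most abundant member per length in every library, at 238, 292 and 121 RPKM (CPM per kilobase of gene length). Of its neighbours, Opalin, 2433 bases beyond it, had 0 counts in every library, and C330026H20Rik had 9, 6 and 17.

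Plasmacytoid dendritic cells can also express Dntt. Of 6 dendritic markers, 2 rose and 1 fell. Siglech had 115, 182 and 18 counts and Ccr9 had 200, 176 and 21, while Irf8 had 425, 479 and 2358. Siglech was 7.92-fold and Ccr9 8.66-fold higher in Pax5-/-, and Irf8 was 5.41-fold lower. The summed level of the list was 117, 128 and 375 CPM, most of it Irf8, so the sum does not describe the other markers. Both Pax5-/- libraries lay above the wild type for 4 of the 6 markers and below it for 1. No marker was at 0 in any library. The part of such cells in the Dntt result was not tested.

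Polm, DNA polymerase mu, which can extend ends with little or no base pairing between them, lies on chromosome 11 (5827860 to 5838832, mm10). It had 0, 0 and 246 counts, or 38.4 CPM in the wild type (95% Poisson interval 33.7 to 43.5). The groups were fully apart: with 0 counts, the limit per Pax5-/- library was 0.463 and 0.441 CPM (3 counts), and over both libraries Polm was at least 170-fold lower. Polm passed the filter on low counts through the wild type alone, and the 2 values of 0 show no spread of their own. Its call (adjusted p = 0.00647, edgeR) therefore rests on the spread estimated across genes, and the counts are the description to read. Of the nearest genes, Pgam2, 24063 bases away, had 32, 16 and 26 counts and was not called. Aebp1, 23033 bases away on the other side, had 2, 1 and 12 counts and was not called either (adjusted p = 0.0877), though it passed in the likelihood ratio test (adjusted p = 0.00651) and with the coefficient of variation set to 0.4 (0.0474).

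Poll, DNA polymerase lambda, which fills short gaps at paired ends, lies on chromosome 19 (45552275 to 45560564, mm10). It had 270, 243 and 90 counts, or 41.7, 35.7 and 14.0 CPM. The Pax5-/- libraries were close to each other and both above the wild type's Poisson interval of 11.3 to 17.3 CPM. The level was 2.76-fold higher (mean 38.7 ± 4.23 CPM, SD, n = 2). The log2 fold change was 1.46 (SE 0.20), with an adjusted p of 0.0187 (edgeR). Beyond its 3′ end, 5928 bases away, the uncharacterised non-coding gene Gm19639 had 212, 249 and 9 counts. Gm19639 also rose (log2 fold change 4.61, SE 0.28, adjusted p = 0.00433), and reads that run between the genes cannot be seen in gene counts.

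Per length, Dntt took a larger share of the 3 polymerases in Pax5-/-, where Polm had no counts. Of their summed RPKM, Dntt took 93.0%, 95.0% and 86.3%. Polm took 9.39% in the wild type and nothing in the others. Poll took 6.98%, 4.98% and 4.30%. The summed level was 256, 307 and 140 RPKM. The ratio of Dntt to Poll per length was no higher in either Pax5-/- library: it was 13.3, 19.1 and 20.1, with 95% counting intervals of 11.8 to 15.1, 16.8 to 21.8 and 16.2 to 25.1.

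Dclre1c (chromosome 2, 3424061 to 3474211, mm10), which encodes Artemis, had 106, 80 and 172 counts, or 16.4, 11.8 and 26.8 CPM. Both Pax5-/- libraries lay below the wild type, but the difference was not called (log2 fold change -0.93, SE 0.27, adjusted p = 0.0890). It passed in the likelihood ratio test (adjusted p = 0.0437). Dclre1c shares 357 exonic bases with Suv39h2 on the other strand, which had 149, 144 and 180 counts and was not called.

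In the ligation step, Lig4 fell and its partners were not called. Lig4 (chromosome 8, 9970020 to 9977680, mm10), the ligase dedicated to end joining, had 100, 145 and 799 counts, or 15.4, 21.3 and 125 CPM. The Pax5-/- libraries were far below the wild type's Poisson interval of 116 to 134 CPM. The level was 6.79-fold lower (mean 18.4 ± 4.15 CPM, SD, n = 2). The log2 fold change was -2.76 (SE 0.23), with an adjusted p of 0.00698 (edgeR).

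Xrcc4 (chromosome 13, 89848914 to 90089608), the scaffold that stabilises the ligase, had 45, 52 and 84 counts, both Pax5-/- libraries below the wild type (7.29 ± 0.49 against 13.1 CPM). It was not called (log2 fold change -0.84, SE 0.26, adjusted p = 0.102). Nhej1 (chromosome 1, 74967346 to 75125226), whose protein XLF aligns ends beside Xrcc4, had 26, 18 and 20 counts. Its Pax5-/- libraries lay on either side of the wild type (log2 fold change 0.09, SE 0.49), and the 95% interval of -1.26 to 1.44 leaves the depth too low to show a change of 2-fold. Prkdc (chromosome 16, 15637444 to 15842239), the DNA-PKcs gene, had 345, 405 and 264 counts, both Pax5-/- libraries above the wild type, and was not called (adjusted p = 0.131, log2 fold change 0.45, SE 0.16).

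**Figure D2:**
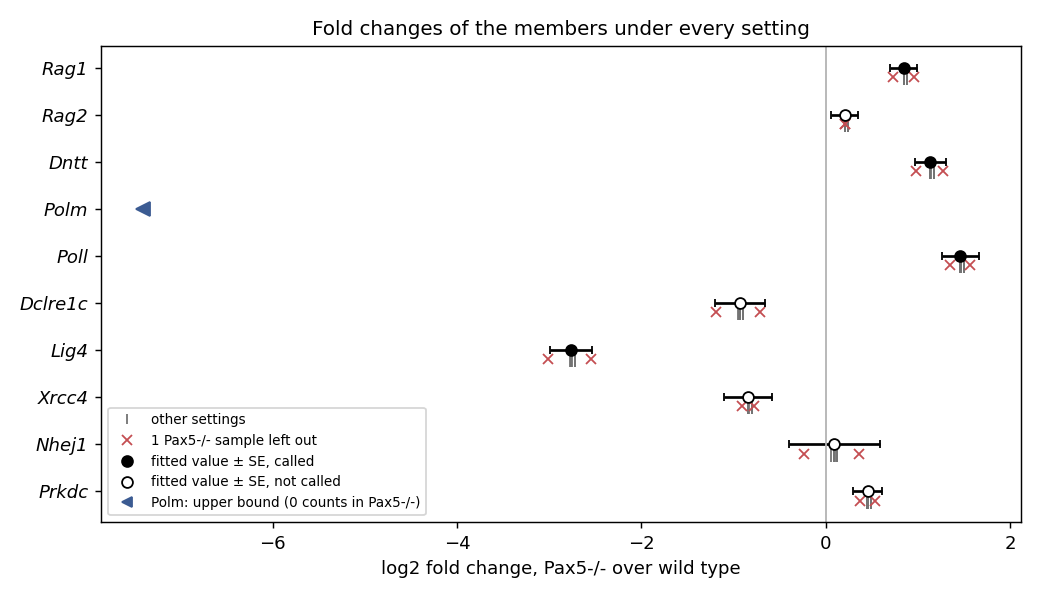
Log2 fold changes of the members, Pax5-/- over wild type, with SE (edgeR); filled circles were called and open circles were not, grey ticks are the other settings and crosses leave out 1 Pax5-/- sample. Polm, with 0 counts in Pax5-/-, is drawn only at its bound, and the Nhej1 crosses lie on both sides of 0.

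The order of the members per length differed between the groups, with Lig4 and Polm lower and Poll higher in Pax5-/-. In the wild type Lig4, at 30.5 RPKM, stood behind Dntt (121) and Rag1 (52.3) and ahead of Rag2 (18.5), Polm (13.1) and Xrcc4 (8.47). Down to Polm, each was separated from the next by its 95% counting interval, while Xrcc4, Poll (6.01), Dclre1c (4.32), Nhej1 (3.63) and Prkdc (3.25) each overlapped with a neighbour in the order. In Pax5-/- the order by mean was Dntt (265), Rag1 (94.1), Rag2 (21.4), Poll (16.6), Xrcc4 (4.71), Lig4 (4.50), Prkdc (4.45), Nhej1 (3.87), Dclre1c (2.26) and Polm (0). Xrcc4, Lig4, Prkdc and Nhej1 were not separated there, since the ranges of the 2 libraries overlapped between each of these and the next. The ratio of Lig4 to Xrcc4 per length was 0.84, 1.06 and 3.61, with 95% counting intervals of 0.59 to 1.23, 0.77 to 1.48 and 2.88 to 4.57.

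**Figure D3:**
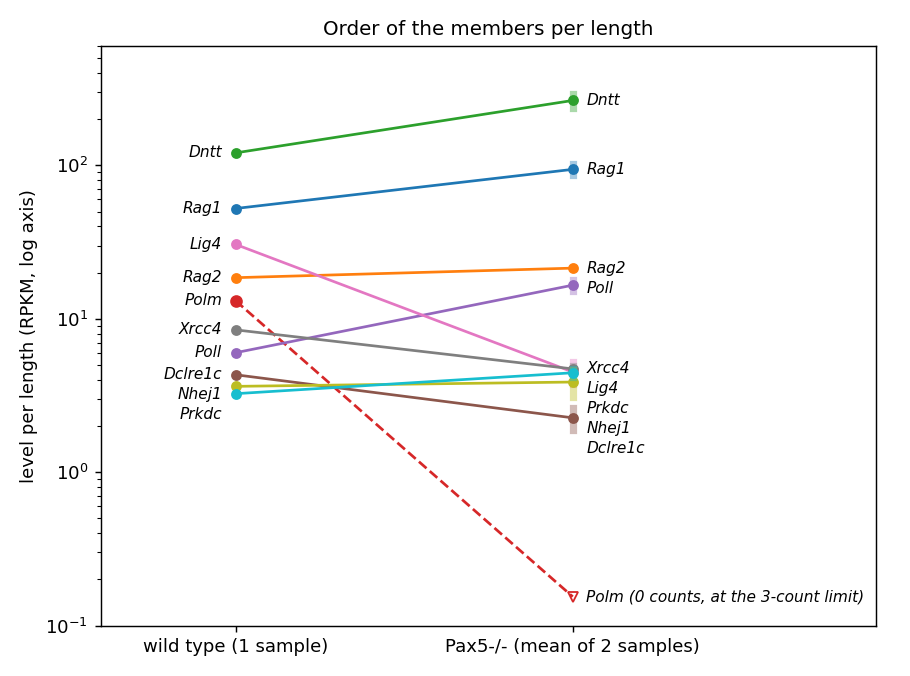
Level per length of each member in the wild type and in Pax5-/-, in RPKM on a log axis; each line is 1 gene and the thick bar spans both Pax5-/- libraries. Lig4 drops from 30.5 to 4.50 RPKM among the other ligation genes, and Polm from 13.1 RPKM to 0 counts, drawn at the 3-count limit.

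Of the 10 members, 4 share a divergent start region with another gene that begins 18 to 58 bases away: Poll with Dpcd, Lig4 with Abhd13, Xrcc4 with Tmem167 and Prkdc with Mcm4. None of the 4 partners was called by edgeR, DESeq2 or limma-voom. In the edgeR fit 1 had an unadjusted p under 0.05, as had 4240 of all 11783 genes tested. Abhd13, a predicted hydrolase gene 36 bases from Lig4, had 275, 287 and 404 counts (log2 fold change -0.57, SE 0.14, adjusted p = 0.0613). Dpcd had 263, 182 and 159 counts beside Poll (log2 fold change 0.44, SE 0.31). Tmem167 had 525, 549 and 669 counts (-0.37, SE 0.14) and shares 112 exonic bases with Xrcc4. Mcm4, a subunit of the replicative helicase, had 3820, 3811 and 3472 counts (0.09, SE 0.11). The difference between a member and its partner was not tested.

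**Figure D4:**
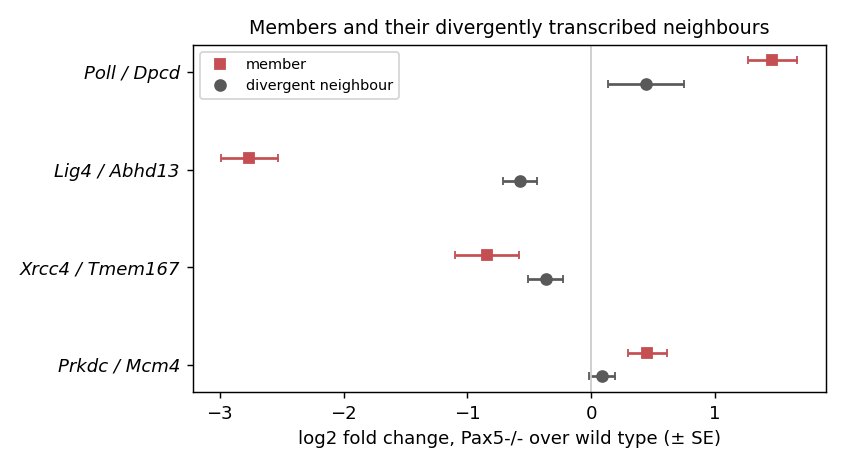
Log2 fold changes with SE of the 4 members that start within 58 bases of a divergent neighbour (squares) and of that neighbour (circles). Lig4 lies at -2.76 and Abhd13 at -0.57, and Poll at 1.46 and Dpcd at 0.44.

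Outside the members, a list of 52 genes of the wider pathway was measured, each matched to the count table, and all 52 passed the filter. Of these, 5 rose, 11 fell and 36 were not called, or 30.8% called, beside 18.1% of all genes tested. Of the 16 called, 10 belonged to the list of 16 genes known to act on Rag1 and Rag2 transcription (62.5% of that list). The pooled share therefore does not describe the recombination and end-joining genes alone. Their median log2 fold change was -0.01.

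The DNA-bending proteins Hmgb1 and Hmgb2, which help the recombinase bend its signals, both fell, Hmgb1 from 292 to 158 ± 0.85 CPM (SD, n = 2) and Hmgb2 from 141 to 81.6 ± 7.36 CPM. Both share sequence with processed copies, so their counts are uncertain, and the Hmgb2 call was lost with library size alone (adjusted p = 0.0577) and in the likelihood ratio test (0.0966). Xrcc6, which encodes Ku70 of the end-binding heterodimer, had 2592, 2698 and 1620 counts and rose (log2 fold change 0.66, SE 0.11; adjusted p 0.0299, and 0.170 in the likelihood ratio test). Xrcc5, which encodes Ku80, had 555, 559 and 336 counts and just missed the threshold (0.68, SE 0.15, adjusted p = 0.0529), which it passed in 4 of the 10 other settings. Of the other processing genes, Tdp1, which removes blocked ends, had 334, 291 and 518 counts and was not called (log2 fold change -0.78, SE 0.18, adjusted p = 0.0563). Tdp1 was called lower in 4 of the 10 other settings (lowest adjusted p = 0.0374) and not by DESeq2 (0.0833) or limma-voom (0.0621). Aplf and Aptx were not called, and neither was Paxx or Cyren of the ligation list.

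Break signalling held no called gene. Of 13 genes of the Atm and 53BP1 axis, 0 were called by edgeR's quasi-likelihood test, 0 by DESeq2, limma-voom or the likelihood ratio test, and 1 with RLE scaling, with upper-quartile scaling and with robust dispersion. At an unadjusted p under 0.05 (edgeR quasi-likelihood test) there were 4 of the 13, beside 4240 of all 11783 genes tested. H2ax, the histone marked at breaks and the most abundant of these genes per length, had 2304, 2251 and 2859 counts (log2 fold change -0.38, SE 0.11, adjusted p = 0.0969). Named after their values were seen, Trp53bp1, which encodes 53BP1, had 919, 965 and 599 counts (log2 fold change 0.60, SE 0.14, adjusted p = 0.0565) and Atm, the break-sensing kinase, 692, 645 and 494 (0.39, SE 0.16). Alternative end joining, a route used when the ligase 4 pathway fails, had 6 measured genes, of which 1 rose, 1 fell and 4 were not called. Parp1, a break sensor, had 15198, 17072 and 4193 counts and rose (log2 fold change 1.89, SE 0.11, adjusted p = 0.00404). Xrcc1, the scaffold it recruits, had 512, 454 and 1494 counts and fell (-1.68, SE 0.16, adjusted p = 0.00906). Polq, Lig1, Lig3 and Rbbp8 were not called.

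Of 7 genes tied to RAG protein turnover, 1 was called (14.3%, beside 18.1% of all genes tested). This was the cyclin gene Ccna2, at 2195, 1884 and 3672 counts. Its log2 fold change was -0.90 (SE 0.16). Skp2, which marks RAG2 for degradation as cells enter S phase, was also named after its value was seen and was not called (464, 538 and 543 counts).

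Of 16 genes known to act on Rag1 and Rag2 transcription, 7 fell, 3 rose and 6 were not called. This list also holds the receptor Cxcr4, and it was chosen with results of these data known. The largest were Ikzf3, which encodes Aiolos, with 9, 22 and 1744 counts (log2 fold change -6.86, SE 0.42), Bach2, a repressor of plasma cell genes, with 235, 315 and 2131 (-3.01, SE 0.19), Lef1, a Wnt pathway factor, with 234, 414 and 1675 (-2.43, SE 0.33), and Satb1, a genome organiser, with 1134, 1180 and 293 (1.93, SE 0.15). Foxo1, an activator of both Rag genes, was named after its value was seen, as were the B-lineage factors Tcf3 and Ebf1. Foxo1 had 652, 800 and 1948 counts (-1.48, SE 0.15). Tcf3 had 1234, 1454 and 4007 counts and Ebf1 666, 848 and 2235, both lower like Foxo1. The called genes of the list that rose were Satb1, Runx1 and Gfi1b. Runx1, with 1719, 2266 and 954 counts (1.01, SE 0.19), and Gfi1b, with 203, 240 and 116 (0.88, SE 0.18), were also named after their values were seen. The part of any gene of this list in the RAG result was not tested.

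**Figure D5:**
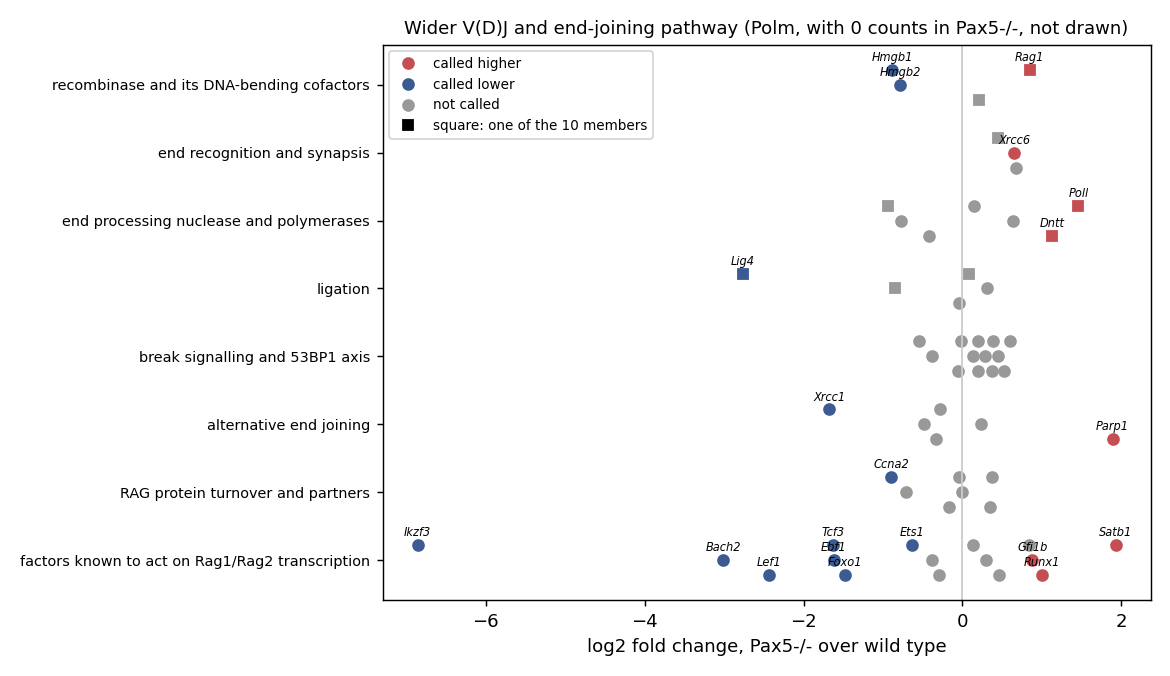
Log2 fold change of each measured gene of the wider pathway by list, Pax5-/- over wild type; squares are members (Polm, with 0 counts in Pax5-/-, is not drawn), coloured points were called and grey points were not. The break signalling row holds no called gene, and the row of Rag1 and Rag2 regulators spreads from -6.86 (Ikzf3) to 1.93 (Satb1).

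The genes whose 3 values lay closest to a member's, among named protein-coding genes of a mean level within 2-fold, were Flna and Cux1 for Rag1 (distance 0.04 and 0.06 on the log2 scale, 607 candidates). For Dntt they were Nedd4 and Septin6 (0.10 and 0.16, 763 candidates), and for Lig4 Pfkp and Txnrd3 (0.09 and 0.15, 4135 candidates). Likeness over 3 libraries describes these samples and no more.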

How the data were processed

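RNA was sequenced from 2 Pax5-/- and 1 wild-type pro-B culture. Per the submitters' processing notes the authors counted reads with featureCounts on mm10, and the deposited values are raw gene counts. Which aligner, version, annotation and strand setting were used is not given in the sources used here, so reads of overlapping genes on opposite strands cannot be separated. Per the file headers each gene has a length in bases, used here only for RPKM. The series table and the sample files held equal counts in all 3 libraries.

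Entrez numbers were paired with RefSeq symbols (GRCm38.p6, which mm10 names) (25275 of 27179 matched, 93.0%). Counts were analysed with edgeR 4.0.16 in R 4.3.3: filterByExpr (minimum count 10), TMM factors of 1.00, 1.018 and 0.983 on the counts of genes kept, glmQLFit and glmQLFTest, with Benjamini-Hochberg adjustment over all genes and a threshold of 0.05. There was 1 residual degree of freedom per gene, moderated with 3.15 prior degrees, and the biological coefficient of variation was 0.203; the spread comes from the 2 Pax5-/- samples, and the wild type is assumed to vary like them. The SE is the coefficient over the square root of F, and 95% intervals of fold changes use it with both degrees of freedom. Poisson and Clopper-Pearson 95% intervals and the limit of 3 counts at 0 cover counting error only. DESeq2 1.42.0, limma 3.58.1 and other settings were alternatives. The members and gene lists were chosen with earlier results of these data known. Genes named beyond the members were up to 4 called genes per list by size of the fold change, neighbours, and the closest patterns; others were named after their values were seen. Shld3 of the wider list, proteins and genes outside the named lists were not used here.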

Additional observations from a re-analysis of the deposited data

How the results depend on the processing

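Across 10 other settings, the count of members called stayed at 5 in 9 of them and was 2 (Polm and Lig4) when the biological coefficient of variation was fixed at 0.4; that setting took the calls over all genes to 1206 and those of the wider pathway, members included, from 21 to 5. In the other settings these ran from 1851 to 2611 and from 18 to 24. The 5 of the likelihood ratio test were not the same genes, since Rag1 (adjusted p = 0.0631) left and Dclre1c (0.0437) entered. Polm and Lig4 were called in every setting (highest adjusted p 0.0118 and 0.0142). With the coefficient of 0.4, Rag1, Dntt and Poll had adjusted p of 0.934, 0.627 and 0.360. No member changed direction in any setting that kept all libraries. Leaving out 1 Pax5-/- sample gives values with no test, since no residual degree of freedom is left: the log2 fold change ranged from 0.73 to 0.96 for Rag1, 0.98 to 1.28 for Dntt, 1.35 to 1.57 for Poll and -3.01 to -2.55 for Lig4, and Nhej1 went from -0.24 to 0.36, so its sign rests on either library. Among regulators, Ets1 and Gfi1b lost their call in several settings. No paired analysis was possible, since there was 1 wild-type sample and the replicate numbers state no pairing between the groups. At this depth, Nhej1 at 18 to 26 counts was the member that depth limited most, and the lone wild type gives no measure of spread between wild-type cultures.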
